A study of Sus scrofa with 6 samples.

Results

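The lysosomal degradation machinery was examined in the abdominal aorta of pigs as a group of genes that build the organelle: the proton pump of its membrane, the enzymes inside it, its membrane proteins, and the adaptors that deliver them. Members were all rows of the expression table assigned to the KEGG lysosome pathway, or with a symbol beginning with ATP6V or ATP6AP, after removal of the cathepsins and of ACP5, ATP6V0D2, CD68, LIPA, ASAH1, GALC, MCOLN1, SLC11A1, SLC11A2, SCARB2, NPC1 and NPC2. The rule itself used no measured value, but it was set with earlier results of these data known. It found 104 of the 30477 rows, of which 100 were placed in 8 functional classes and 4 were set apart, 3 because their identity was in doubt and 1 because it encodes no pump subunit. Of the 100 classed genes, 97 passed the filter of a mean of at least 0.1 FPKM (fragments per kilobase of transcript scaled to the number of mapped fragments) over the 6 libraries. ATP6V0A4 and AP1M2 were listed at 0 in all 6, and PSAPL1 lay under the filter.

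The samples were abdominal aortas of male Wuzhishan miniature pigs, with 3 pigs fed normal chow (NC) and 3 fed a diet high in fat, cholesterol and fructose (HFCF). Feeding lasted 6 months and each library came from 1 pig. The labels give the age as 3 to 4 months, which conflicts with that feeding time if it is the age at sampling, and the methods give an older age at the start. No genotype or drug differed between the groups, and the HFCF feed differed from chow in several components at once, whose effects cannot be told apart. The comparison asks which lysosomal genes differed in transcript level in the aortic wall after this diet.

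Lysosomes are acidic compartments in which proteins, glycans, lipids and nucleic acids taken up from outside or delivered by autophagy are degraded. Their acidity is made by the V-ATPase, a rotary pump whose peripheral V1 sector hydrolyzes ATP and whose membrane-bound V0 sector carries protons across the membrane. Most soluble enzymes are marked with mannose 6-phosphate in the Golgi, bound by receptors there and packed by clathrin adaptors into carriers that run to endosomes. In atherosclerotic arteries lysosomes are best known in macrophages, which use them to break down lipoproteins that they have taken up.

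The tissue was whole aortic wall, and its smooth muscle identity was plain in every library. ACTA2, the actin of contractile smooth muscle, was read at 9145, 7412 and 6298 FPKM in the NC pigs and 3454, 3359 and 4767 FPKM in the HFCF pigs. Summed over 10 contractile smooth muscle markers the level ranged from 15820 to 22630 FPKM under NC and from 8185 to 12980 FPKM under HFCF, with 6 of the 10 called lower and 1 higher. Summed over 12 macrophage markers it ranged from 60.3 to 72.5 FPKM under NC and from 808.5 to 2042 FPKM under HFCF, with all 12 called higher and none at 0 in any HFCF library. Among markers of other cells, 3 of 4 tested osteoclast markers, 1 of 7 fibroblast, 1 of 5 T cell, 1 of 5 B cell and 1 of 3 neutrophil markers were higher, 1 of 6 adipocyte markers was lower, and none of 8 endothelial markers was called (2 at an unadjusted p under 0.05). In such bulk tissue a larger or smaller number of cells of a type and more or less RNA per cell cannot be told apart, and the part of these markers in the lysosomal differences was not tested. The summed FPKM over all genes was 272207 to 287141 under NC and 330222 to 338690 under HFCF, and the median of all tested genes was 0.32 higher under HFCF on the log2 scale.

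Of the 97 tested members, 35 rose under HFCF, 2 fell and 60 were not called (limma on log2(FPKM + 0.1), Benjamini-Hochberg adjusted p under 0.05). The rising members were 36.1% of those tested, beside 22.8% of all 15384 tested genes, and the falling ones compare with 6.16% of all genes; 28.9% of all genes were called in either direction. By the study's thresholds for differential genes (a ratio of group means above 2 or below 0.5 with an unadjusted p under 0.05) 25 members were higher and 2 lower, beside 20.7% and 4.82% of all genes. Those 2 were SORT1 and AP3B2, the latter at a mean of only 0.118 FPKM, while TPP1 had a ratio of 0.529. The median log2 fold change was 0.48 for the members, 0.16 above the median of all tested genes. All 3 HFCF pigs lay above all 3 NC pigs for 47 members (48.5%, beside 36.1% of all genes), and all 3 lay below for 7 (7.22%, beside 12.1%). The counts depended on how libraries were scaled to each other: 19 rose and 8 fell with median-ratio scaling, 19 and 5 with quantile normalization, and 19 and 4 after rescaling to TPM, so that the higher calls were 70.4%, 79.2% and 82.6% of all member calls in place of 94.6%. Over all genes that share fell too, from 78.7% to 50.8%, 49.5% and 59.3%. The 19 higher members were 19.6% of those tested, beside 13.2%, 11.4% and 14.5% of all genes, and the lower ones were 8.25%, 5.15% and 4.12%, beside 12.8%, 11.6% and 9.93%. Under those 3 scalings the median of all genes was -0.003, -0.07 and 0.09. Leaving out the first NC pig gave 19 higher and 2 lower, leaving out the second NC pig 20 and 1, and leaving out the second HFCF pig 22 and 2. The share of all genes called higher was then 12.7%, 15.2% and 14.9%. Of the 35, 16 rose under every scaling, and 15 of them rose in each of 15 alternative fits: ATP6V1A, ATP6V1F, ATP6V0B, ATP6AP2, HEXA, SGSH, GM2A, DNASE2, LAPTM5, CD164, LAMP2, NAGPA, AP1G2, AP1S2 and GGA3. The exception among the 16, ATP6AP1, lost its call without the first NC pig. Both members lower in the limma fit, SORT1 and TPP1, were lower under every scaling, and so were IDUA and LAPTM4A, which missed the threshold without scaling.

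**Figure D1:**
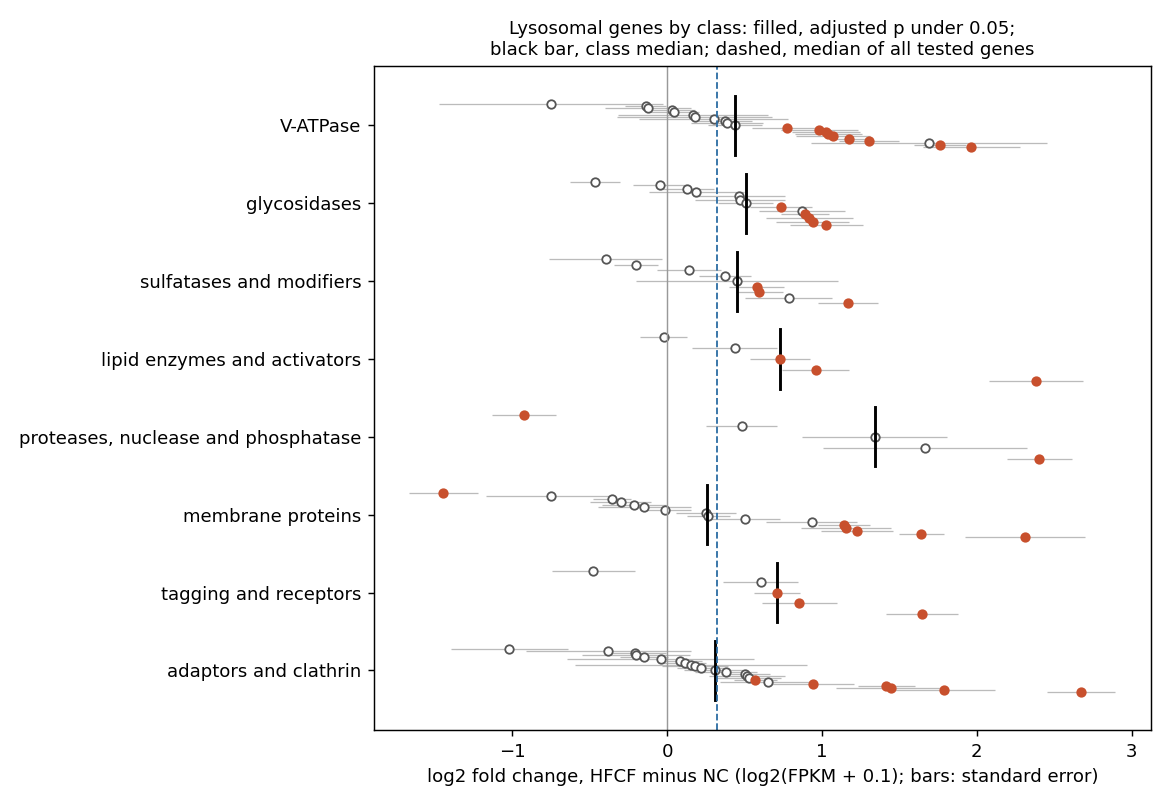
Difference of each tested member between HFCF and NC on the horizontal axis (log2 of FPKM + 0.1, with its standard error), grouped by functional class. Filled points passed an adjusted p of 0.05, and each class held both called and uncalled genes. The class medians (black bars) ran from 0.26 for membrane proteins to 1.34 for proteases, nuclease and phosphatase, beside 0.32 for all tested genes (dashed line). The class with the median of 1.34 held 5 tested genes, with 1 called higher and 1 lower.

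Among the V-ATPase genes, 9 of 21 tested rose and none fell in the limma fit (10 higher and 0 lower at an unadjusted p under 0.05), with a median log2 fold change of 0.44. The 9 were 42.9%, beside 22.8% of all genes called higher. The calls were unequally spread over the pump. Of the tested V0 genes 5 of 6 rose (83.3%), and so did both accessory proteins, whereas 2 of 13 V1 genes did so (15.4%). The V0 count was 2 with median-ratio scaling or TPM and 1 with quantile normalization, and 3, 2 and 2 without the first NC, the second NC and the second HFCF pig, while the V1 count was 2 in each of these fits. The median was 1.005 for V0 and 0.30 for V1, the latter 0.02 below the median of all genes and -0.11 under quantile normalization. Without the 5 tissue-restricted isoforms, the median over the 8 principal V1 subunits was 0.38, exceeding the all-gene median by 0.06, again with 2 calls. Whether the sectors differ was not tested.

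In the V1 sector ATP6V1A, the catalytic A subunit, was read at 1.23, 1.47 and 2.11 FPKM in the NC pigs and 9.52, 5.2 and 5.3 FPKM in the HFCF pigs. Every HFCF pig lay above every NC pig (log2 fold change 1.97 ± 0.32 (SE), adjusted p = 0.00592). ATP6V1F, a subunit of the central stalk, stood at 34.6, 30.4 and 22.3 FPKM in the NC pigs and 78.6, 72.1 and 62.9 FPKM in the HFCF pigs, again without overlap (log2 fold change 1.31 ± 0.19 (SE), adjusted p = 0.00473). These were the only V1 genes called. The B subunit ATP6V1B2, the non-catalytic partner of A, was read at 16.3, 16.3 and 18.4 FPKM under NC and 27.6, 23.5 and 18.8 FPKM under HFCF. Its groups did not overlap, but the difference missed the threshold (log2 fold change 0.44 ± 0.18 (SE), adjusted p = 0.102). ATP6V1H, a regulatory subunit, also had separate groups and no call, with 3.27 ± 0.23 FPKM (SD, n = 3) under NC and 4.27 ± 0.386 FPKM under HFCF (log2 fold change 0.38 ± 0.17 (SE), adjusted p = 0.149).

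The other V1 genes overlapped between the groups. ATP6V1E1, of the peripheral stalk, stood at 18.2, 17.1 and 18.7 FPKM under NC and 15.4, 16.4 and 17.2 FPKM under HFCF, and was not called (log2 fold change -0.14 ± 0.13 (SE), adjusted p = 0.449), though it was called lower with median-ratio scaling. For ATP6V1D, of the rotating central stalk, the values were 7.51, 7.05 and 8.24 FPKM under NC and 8.48, 8.89 and 4.47 FPKM under HFCF, the lowest being the third HFCF pig. ATP6V1C1, which helps link the peripheral stalks to V0, and ATP6V1G1, listed under that symbol with the description of another protein, had log2 fold changes of 0.39 (adjusted p = 0.245) and 0.05 (adjusted p = 0.856). The tissue-restricted isoforms ATP6V1B1, ATP6V1C2, ATP6V1E2, ATP6V1G2 and ATP6V1G3 reached at most 1.18 FPKM in any library and were not called.

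In the V0 sector ATP6V0B, a proteolipid of the rotating ring, changed most. Its values were 18.5, 20.3 and 22.6 FPKM in the NC pigs and 84.5, 61.6 and 64.1 FPKM in the HFCF pigs, with every HFCF pig far above the highest NC pig (log2 fold change 1.76 ± 0.17 (SE), adjusted p = 0.00124). ATP6V0C, the main ring proteolipid and the most abundant pump transcript, was read at 103, 84.7 and 102 FPKM in the NC pigs and 230.3, 145 and 134 FPKM in the HFCF pigs. The first HFCF pig stood apart from the other two, and the call was the weakest of the sector (log2 fold change 0.78 ± 0.23 (SE), adjusted p = 0.0421), kept in 4 of 15 alternatives. ATP6V0D1, the ubiquitous subunit that couples the ring to the stalk, overlapped completely at 49.9, 38.5 and 48.2 FPKM under NC and 44.3, 46.1 and 48.5 FPKM under HFCF (log2 fold change 0.03 ± 0.15 (SE), adjusted p = 0.886).

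Subunit a, which forms the proton path beside the ring, has isoforms that direct the pump to different membranes. ATP6V0A1 was read at 7.003, 7.8 and 9.13 FPKM in the NC pigs and 22.5, 14.2 and 12.2 FPKM in the HFCF pigs (log2 fold change 0.98 ± 0.25 (SE), adjusted p = 0.0266), and kept its call in 8 of 15 alternatives. ATP6V0A2, the Golgi form, was read at 1.09, 1.5 and 1.49 FPKM under NC and 2.73, 2.92 and 2.9 FPKM under HFCF (log2 fold change 1.03 ± 0.22 (SE), adjusted p = 0.0149), kept in 13. TCIRG1, the a3 form of lysosomes and of the osteoclast border, was read at 7.63, 4.75 and 6.3 FPKM under NC and 15.7, 10.3 and 13.5 FPKM under HFCF (log2 fold change 1.07 ± 0.24 (SE), adjusted p = 0.0172), kept in 11. The 3 isoforms rose without overlap and by similar amounts. Their shares of the summed subunit a level therefore differed little: TCIRG1 made up 39.9% ± 7.7 under NC and 41.0% ± 5.4 under HFCF (SD, n = 3), a difference of 1.09 percentage points that ran from -2.01 without the third HFCF pig to 5.42 without the first NC pig, and turned negative also without the second or the third NC pig. ATP6V0A1 made up 51.3% ± 5.9 and 49.9% ± 6.4. Over subunits a, B, C, E and G, 13 such shares were compared with an exact two-sided permutation test, whose smallest possible p here is 0.1, and the p-values ran from 0.4 to 1.

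The accessory proteins completed the pump. ATP6AP1, an assembly and sorting subunit, was read at 25.1, 25.5 and 28.6 FPKM in the NC pigs and 72.2, 53.95 and 41.1 FPKM in the HFCF pigs (log2 fold change 1.04 ± 0.22 (SE), adjusted p = 0.0134), and kept its call in 14 of 15 alternatives. ATP6AP2, the (pro)renin receptor, was read at 9.09, 9.66 and 9.32 FPKM in the NC pigs and 22.2, 21.8 and 19.8 FPKM in the HFCF pigs. The tight groups were far apart (log2 fold change 1.18 ± 0.13 (SE), adjusted p = 0.00191).

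**Figure D2:**
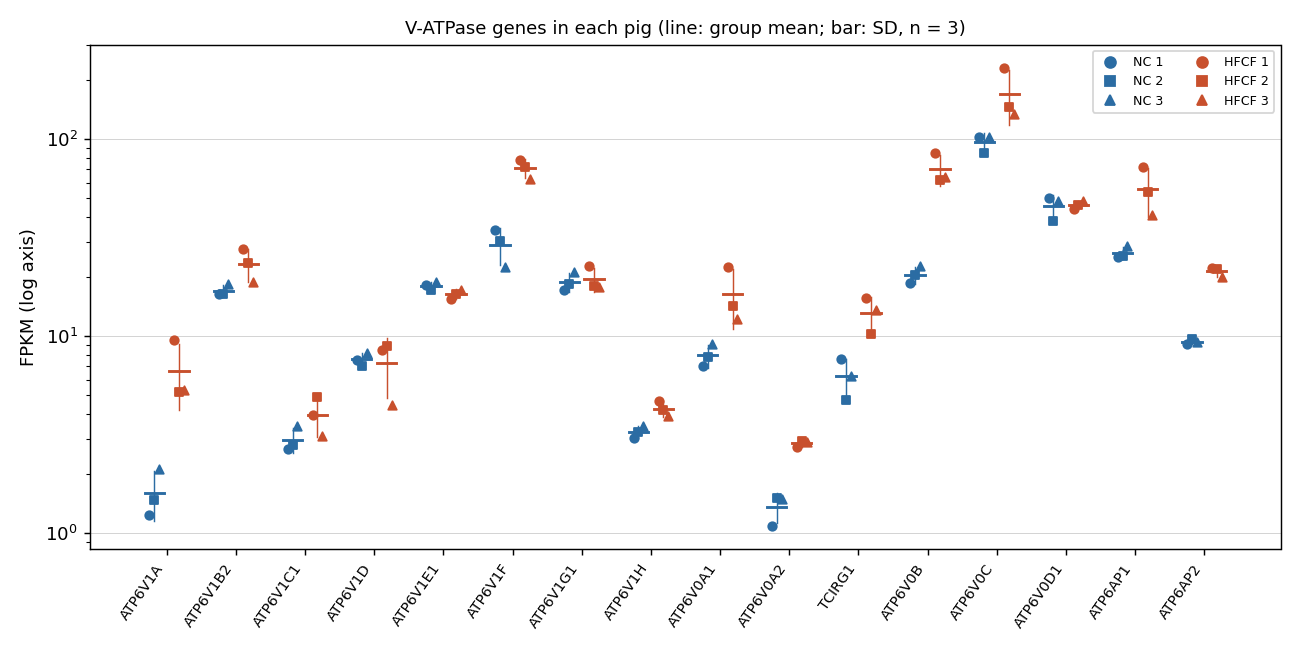
FPKM of the V-ATPase genes with a mean above 1 FPKM in each of the 6 pigs on a log axis; lines are group means and bars are SD (n = 3). ATP6V1A, ATP6V1F, ATP6V0B and ATP6AP2 separated the groups widely, whereas ATP6V0D1 at 38.5 to 49.9 FPKM and ATP6V1E1 at 15.4 to 18.7 FPKM overlapped.

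Beside the members stood 10 tested genes linked to assembly or regulation of the V-ATPase. In the limma fit 4 were higher (40%, beside 22.8% of all genes) and none lower (7 and 0 at an unadjusted p under 0.05). The 4 were TMEM199, DMXL1, ROGDI and TLDC2, with log2 fold changes of 0.57, 1.57, 2.02 and 1.17 and calls kept in 7, 14, 13 and 6 of 15 alternatives; DMXL1 and ROGDI belong to the complex that puts V1 and V0 together. The d2 subunit gene ATP6V0D2, the isoform of osteoclasts and some macrophages that the rule leaves out, was read at 0, 0 and 0.324 FPKM under NC and 9.22, 6.33 and 3.73 FPKM under HFCF.

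The glycosidases cut sugars from glycoproteins, glycolipids and glycosaminoglycans. Of 13 tested, 5 rose, among them HEXA, GUSB, MAN2B1 and MANBA, and none fell in the limma fit (7 higher and 1 lower at an unadjusted p under 0.05), with a median log2 fold change of 0.51. The 5 were 38.5%, beside 22.8% of all genes called higher. HEXA, the α subunit of β-hexosaminidase, was read at 20.6, 19.6 and 20.6 FPKM in the NC pigs and 44.9, 35.7 and 33.2 FPKM in the HFCF pigs. The NC pigs were almost equal and all HFCF pigs were above them (log2 fold change 0.89 ± 0.15 (SE), adjusted p = 0.00751).

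GUSB, β-glucuronidase, was read at 9.93, 10.3 and 11.6 FPKM in the NC pigs and 29.02, 22.5 and 15.6 FPKM in the HFCF pigs (log2 fold change 1.03 ± 0.23 (SE), adjusted p = 0.0186). MAN2B1, the lysosomal α-mannosidase, was read at 27.97, 27.4 and 22.4 FPKM under NC and 68.98, 46.8 and 37.8 FPKM under HFCF (log2 fold change 0.94 ± 0.24 (SE), adjusted p = 0.0254). MANBA, the β-mannosidase, stood much lower at 1.59, 2.41 and 1.8 FPKM under NC and 5.16, 3.24 and 2.99 FPKM under HFCF (log2 fold change 0.92 ± 0.28 (SE), adjusted p = 0.0476). In all 3 the first HFCF pig was the highest library, and the calls were kept in 9, 8 and 2 of 15 alternatives. GLB1, β-galactosidase, was read at 33.3, 33.2 and 43.3 FPKM under NC and 45.1, 41.1 and 33.7 FPKM under HFCF (log2 fold change 0.13 ± 0.18 (SE), adjusted p = 0.619). IDUA, which removes iduronic acid from heparan and dermatan sulfate, was below the NC range in all 3 HFCF pigs, at 46.98, 42.1 and 43.3 FPKM under NC and 26.3, 34.1 and 36.2 FPKM under HFCF, and missed the threshold (log2 fold change -0.46 ± 0.16 (SE), adjusted p = 0.068), which it passed under each of the 3 scalings.

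The sulfatases remove sulfate groups from glycosaminoglycans and sulfatides, and SUMF1 and HGSNAT were counted with them as modifiers. Of these 9, 3 rose and none fell in the limma fit (4 and 0 at an unadjusted p under 0.05). The 3 were 33.3%, beside 22.8% of all genes called higher. SGSH, which takes N-linked sulfate from heparan sulfate, was read at 4.01, 5.04 and 4.21 FPKM in the NC pigs and 12.2, 8.95 and 9.14 FPKM in the HFCF pigs, with wide separation (log2 fold change 1.17 ± 0.19 (SE), adjusted p = 0.00633). ARSA, the sulfatide sulfatase, was read at 8.12, 9.46 and 9.35 FPKM under NC and 15.2, 12.97 and 12.7 FPKM under HFCF (log2 fold change 0.60 ± 0.15 (SE), adjusted p = 0.0268), and GALNS, which acts on keratan and chondroitin sulfate, at 9.52, 12.8 and 11.2 FPKM under NC and 16.7, 14.5 and 19.1 FPKM under HFCF (log2 fold change 0.58 ± 0.18 (SE), adjusted p = 0.0476). These last calls were kept in 5 and 3 of 15 alternatives. The higher count of the class was 1 under each scaling and without any single pig other than the third HFCF pig. IDS, another sulfatase, was below the NC range in each HFCF pig, at 19.1, 23.7 and 19.7 FPKM under NC and 17.7, 17.5 and 18.9 FPKM under HFCF. It was not called (log2 fold change -0.20 ± 0.14 (SE), adjusted p = 0.321), but was called lower with median-ratio scaling. SUMF1, the enzyme that activates all sulfatases, was read at 20.5, 23.6 and 24.4 FPKM under NC and 23.9, 23.5 and 9.12 FPKM under HFCF, with only the third HFCF pig away from the rest (log2 fold change -0.40 ± 0.37 (SE), adjusted p = 0.447).

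Among lipid enzymes and their activators 3 of 5 tested rose (60%, beside 22.8% of all genes). GM2A, the activator that presents GM2 ganglioside to β-hexosaminidase A, was read at 16.9, 23.8 and 35.5 FPKM in the NC pigs and 172, 112 and 107 FPKM in the HFCF pigs. The lowest HFCF pig exceeded the highest NC pig by far (log2 fold change 2.38 ± 0.31 (SE), adjusted p = 0.0029). PPT1 and PPT2, thioesterases that remove fatty acids from proteins and related substrates, also rose. PPT1 was read at 28.96, 33.8 and 35.7 FPKM under NC and 86.9, 56.3 and 52.7 FPKM under HFCF (log2 fold change 0.96 ± 0.22 (SE), adjusted p = 0.0176) and PPT2 at 3.36, 3.47 and 4.52 FPKM under NC and 5.53, 6.61 and 6.78 FPKM under HFCF (log2 fold change 0.73 ± 0.19 (SE), adjusted p = 0.0303), with calls kept in 10 and 7 of 15 alternatives. PSAP, the precursor of the saposins and the most abundant transcript of all members, was read at 233, 241 and 293 FPKM in the NC pigs and 516, 312 and 254 FPKM in the HFCF pigs. The third HFCF pig lay inside the NC range, and the gene was not called (log2 fold change 0.44 ± 0.27 (SE), adjusted p = 0.266). SMPD1, acid sphingomyelinase, was nearly level, with 21.5 ± 2.88 FPKM (SD, n = 3) under NC and 21.03 ± 1.05 FPKM under HFCF.

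The remaining soluble hydrolases moved in opposite directions. DNASE2, the acid nuclease that degrades DNA of engulfed cells, was read at 9.28, 9.3 and 10.1 FPKM in the NC pigs and 69.02, 46.9 and 40.9 FPKM in the HFCF pigs. No NC pig exceeded 10.1 FPKM and no HFCF pig was under 40.9 FPKM (log2 fold change 2.404 ± 0.21 (SE), adjusted p = 0.000934). TPP1, a tripeptidyl peptidase, was read at 60.03, 70.5 and 85.1 FPKM in the NC pigs and 38.5, 45.6 and 29.98 FPKM in the HFCF pigs, and fell without overlap (log2 fold change -0.92 ± 0.21 (SE), adjusted p = 0.0173), keeping its call in 13 of 15 alternatives. LGMN, the asparaginyl endopeptidase that matures cathepsins, was read at 27.8, 11.9 and 19.4 FPKM under NC and 77.2, 55.5 and 24.6 FPKM under HFCF. The third HFCF pig lay inside the NC range and the difference was not called (log2 fold change 1.34 ± 0.47 (SE), adjusted p = 0.0697). NAPSA and ACP2, an aspartic protease and an acid phosphatase, were not called either, with log2 fold changes of 1.67 (adjusted p = 0.0992) and 0.48 (adjusted p = 0.158). Over all soluble enzymes and activators 12 of 30 rose (40%, beside 22.8% of all genes) and 1 fell. The higher count was 4 without the first or the second NC pig and 6 without the second HFCF pig. In these 3 fits 12.7%, 15.2% and 14.9% of all genes were higher.

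**Figure D3:**
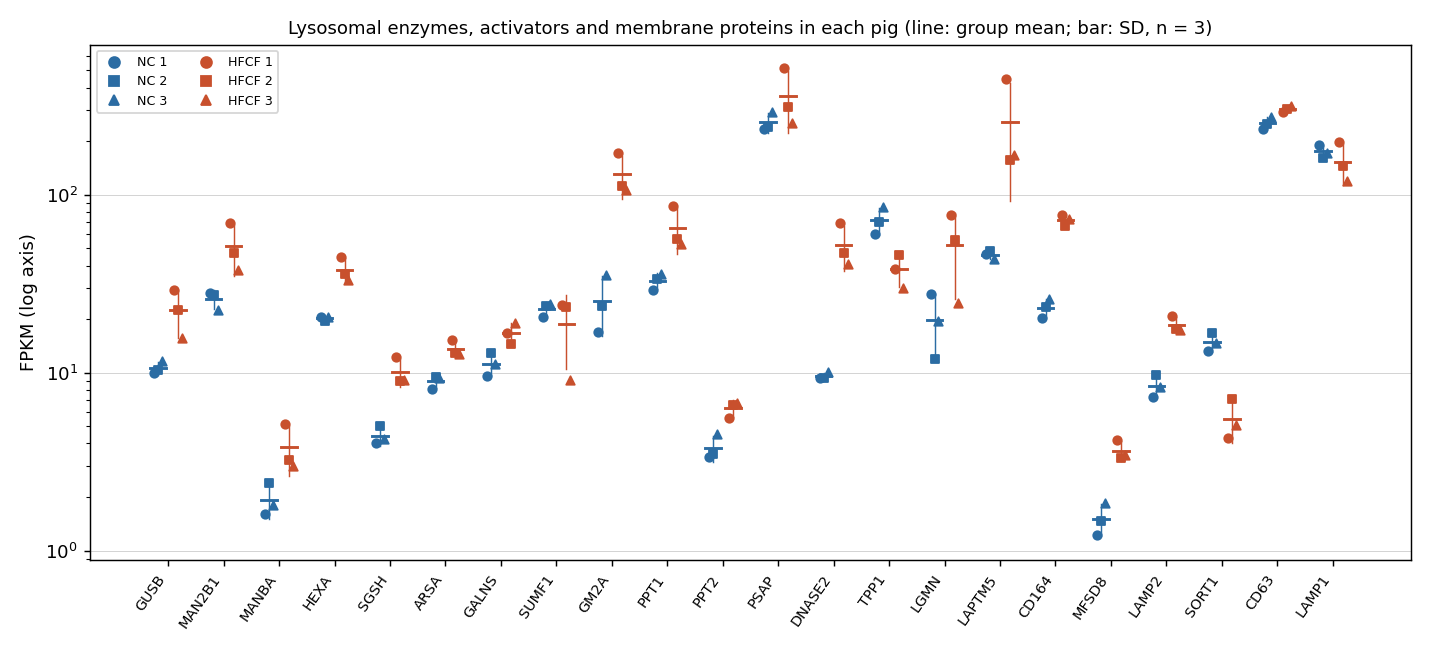
FPKM of 22 lysosomal enzymes, activators and membrane proteins in each of the 6 pigs on a log axis; lines are group means and bars are SD (n = 3). DNASE2, GM2A, CD164 and LAPTM5 separated the groups widely upward, and SORT1 and TPP1 downward, whereas LAMP1 overlapped.

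Of 16 lysosomal membrane proteins 5 rose (31.25%, beside 22.8% of all genes) and 1 fell. Their median log2 fold change was 0.26, below that of all genes. LAPTM5, a transmembrane protein of hematopoietic cells, was read at 46.5, 48.1 and 43.4 FPKM in the NC pigs and 449, 157 and 168 FPKM in the HFCF pigs. The first HFCF pig was far above the other two, and all 3 were above the NC pigs (log2 fold change 2.31 ± 0.39 (SE), adjusted p = 0.00672). CD164, a sialomucin, was read at 20.4, 23.2 and 25.9 FPKM in the NC pigs and 77.3, 66.6 and 72.9 FPKM in the HFCF pigs, with little spread in either group (log2 fold change 1.64 ± 0.15 (SE), adjusted p = 0.000984). MFSD8, a transporter mutated in neuronal ceroid lipofuscinosis, was read at 1.22, 1.47 and 1.84 FPKM under NC and 4.18, 3.3 and 3.45 FPKM under HFCF (log2 fold change 1.23 ± 0.23 (SE), adjusted p = 0.00998), with its call kept in 14 of 15 alternatives.

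Of the main structural glycoproteins of the lysosomal membrane, LAMP2 rose and LAMP1 was not called. The LAMP2 values were 7.32, 9.64 and 8.26 FPKM in the NC pigs and 20.9, 17.7 and 17.3 FPKM in the HFCF pigs, without overlap (log2 fold change 1.14 ± 0.17 (SE), adjusted p = 0.00429). LAMP1 was far more abundant at 191, 162 and 172 FPKM under NC and 197, 145 and 119 FPKM under HFCF, with overlapping groups (log2 fold change -0.22 ± 0.21 (SE), adjusted p = 0.467). The ratio of LAMP2 to LAMP1 within a library was 0.0486 ± 0.011 under NC and 0.124 ± 0.020 under HFCF (SD, n = 3), a pair picked after its values were seen and given as a description. The tetraspanin CD63, the most abundant membrane member, was read at 234, 251 and 273 FPKM under NC and 291, 305 and 314 FPKM under HFCF, with separate groups but a difference that missed the threshold (log2 fold change 0.27 ± 0.14 (SE), adjusted p = 0.191). SORT1, the sorting receptor sortilin, was read at 13.2, 16.7 and 14.7 FPKM in the NC pigs and 4.27, 7.15 and 5.09 FPKM in the HFCF pigs, a fall with no overlap (log2 fold change -1.45 ± 0.22 (SE), adjusted p = 0.0051). Other uncalled members were CLN3, CTNS, SLC17A5, ENTPD4, ABCB9, LITAF, LAPTM4A and LAPTM4B, at log2 fold changes of -0.75 to 0.93. LAPTM4A, a relative of LAPTM5, was below the NC range in each HFCF pig at 147, 158 and 154 FPKM under NC and 119, 117 and 122 FPKM under HFCF (adjusted p = 0.0661), and passed under each of the 3 scalings.

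The enzymes that write the mannose 6-phosphate tag all rose, and its receptors were not called. Together 3 of these 5 genes were called higher (60%, beside 22.8% of all genes). NAGPA, the uncovering enzyme that completes the tag, was read at 2.04, 1.44 and 1.79 FPKM in the NC pigs and 7.09, 5.31 and 4.84 FPKM in the HFCF pigs (log2 fold change 1.65 ± 0.23 (SE), adjusted p = 0.00386). GNPTAB, which encodes the catalytic part of the phosphotransferase that starts the tag, was read at 2.63, 3.005 and 3.08 FPKM under NC and 6.86, 5.62 and 3.9 FPKM under HFCF (log2 fold change 0.85 ± 0.24 (SE), adjusted p = 0.0378), and GNPTG, its γ subunit, at 13.97, 11.8 and 14.01 FPKM under NC and 21.8, 19.8 and 23.7 FPKM under HFCF (log2 fold change 0.71 ± 0.15 (SE), adjusted p = 0.0135). Calls were kept in 15, 5 and 13 of 15 alternatives. The cation-dependent receptor M6PR was read at 6.63, 4.07 and 4.73 FPKM under NC and 9.47, 7.52 and 6.44 FPKM under HFCF (log2 fold change 0.60 ± 0.24 (SE), adjusted p = 0.101). IGF2R, the large receptor that also clears insulin-like growth factor II, was read at 15.7, 14.5 and 24.7 FPKM under NC and 13.8, 15.5 and 9.68 FPKM under HFCF (log2 fold change -0.48 ± 0.27 (SE), adjusted p = 0.217), and the groups of both receptors overlapped.

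The adaptors and clathrin chains form the coats that carry enzymes and membrane proteins to the lysosome. Of 23 tested, 6 rose and none fell in the limma fit (8 higher and 1 lower at an unadjusted p under 0.05), with a median of 0.31, close to that of all genes. The 6 were 26.1%, also near the 22.8% of all genes called higher. GGA3, an adaptor that binds the tail of the mannose 6-phosphate receptors, was read at 0.902, 0.992 and 1.1 FPKM in the NC pigs and 7.88, 5.53 and 7.53 FPKM in the HFCF pigs. This was the largest log2 fold change among the 97 tested members (log2 fold change 2.67 ± 0.22 (SE), adjusted p = 0.00082). Its relatives GGA1 and GGA2 had log2 fold changes of 0.22 (adjusted p = 0.314) and -0.21 (adjusted p = 0.462), with GGA2, the most abundant of the 3, read at 30.5, 21.9 and 35.4 FPKM under NC and 26.04, 25.7 and 22.8 FPKM under HFCF.

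Of 7 tested subunits of adaptor complex 1, which works between the Golgi and endosomes, 3 rose (42.9%, beside 22.8% of all genes). AP1G2, the γ2 subunit, was read at 4.4, 3.3 and 4.68 FPKM in the NC pigs and 10.3, 11.2 and 11.7 FPKM in the HFCF pigs (log2 fold change 1.42 ± 0.18 (SE), adjusted p = 0.00303). The small σ subunits AP1S2 and AP1S3 were read at 0.677, 1.18 and 0.98 FPKM under NC and 4.98, 2.52 and 3.25 FPKM under HFCF (log2 fold change 1.79 ± 0.33 (SE), adjusted p = 0.00897) and at 0.204, 0.31 and 0.269 FPKM under NC and 1.18, 0.564 and 1.002 FPKM under HFCF (log2 fold change 1.45 ± 0.36 (SE), adjusted p = 0.0237), the latter call kept in 7 of 15 alternatives. AP1G1, the other γ subunit, was not called (log2 fold change -0.15 ± 0.16 (SE), adjusted p = 0.492), and AP1M1, the most abundant adaptor transcript of the class, was read at 32.6, 21.6 and 26.99 FPKM under NC and 25.2, 29.5 and 37.3 FPKM under HFCF (log2 fold change 0.18 ± 0.21 (SE), adjusted p = 0.558). AP3B1, the β subunit of the adaptor complex 3 that serves lysosome-related organelles, was the only one of its 6 subunits called (log2 fold change 0.94 ± 0.27 (SE), adjusted p = 0.0374), kept in 5 of 15 alternatives. None of 4 subunits of adaptor complex 4 was called in the limma fit, and 0 had an unadjusted p under 0.05. The clathrin heavy chain CLTC was read at 13.2, 15.2 and 14.9 FPKM under NC and 22.8, 22.04 and 19.4 FPKM under HFCF (log2 fold change 0.57 ± 0.14 (SE), adjusted p = 0.0239), kept in 7 of 15, whereas the light chains CLTA and CLTB were not called. With the tagging genes, 9 of 28 trafficking genes rose (32.1%, beside 22.8% of all genes), and 5 without the first NC pig. AP3B2, at most 0.211 FPKM in any library, was called lower without the first HFCF pig.

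**Figure D4:**
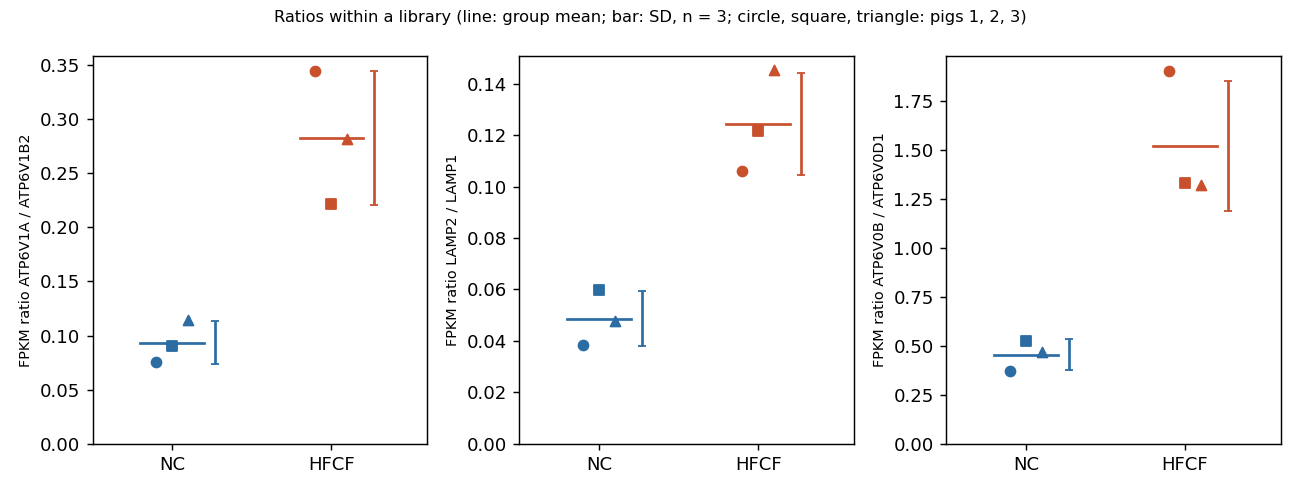
Ratio of the FPKM of 2 related members within each library, by group; lines are means and brackets are SD (n = 3), and each axis starts at 0. In all 3 pairs the HFCF pigs lay above the NC pigs: ATP6V1A over ATP6V1B2 0.283 beside 0.0935, LAMP2 over LAMP1 0.124 beside 0.0486, and ATP6V0B over ATP6V0D1 1.52 beside 0.456; the pairs were picked after the values were seen.

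A ratio within a library does not depend on a single factor that scales the whole library, though quantile normalization can change it. For the catalytic pair of V1, ATP6V1A over ATP6V1B2, the ratio ran from 0.0754 to 0.115 under NC and from 0.222 to 0.345 under HFCF. For the V0 pair, ATP6V0B over ATP6V0D1, it ran from 0.371 to 0.527 under NC and from 1.32 to 1.91 under HFCF. In these pairs of pump genes the partners differed by unequal amounts between the diets. The pairs were picked after their values were seen, so the ratios are a description and no test.

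The first HFCF pig was the highest HFCF library for 65 of the 97 members (67.0%, beside 42.5% of all tested genes). Among the HFCF libraries it also had the highest sums of macrophage, osteoclast, neutrophil, T cell, B cell, endothelial and adipocyte markers. Its sums of contractile smooth muscle and fibroblast markers were the lowest among them. The part of these marker differences in the member values was not tested. Without this pig 27 members were called higher and 3 lower (27.8% and 3.09%, beside 18.1% and 5.1% of all genes). Its relative sequencing depth, read from the steps between low values, was 1.03, within the range of 1 to 1.37 over the 6 libraries.

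Beyond the members, the 22 lysosome genes that the rule leaves out held 15 higher (68.2%, beside 22.8% of all genes) and 1 lower calls. Their median log2 fold change was 1.604, and 1.26 to 1.39 under the 3 scalings. Among them CTSD, the main aspartic cathepsin, was read at 154, 142 and 181 FPKM under NC and 2031, 1048 and 689 FPKM under HFCF, and LIPA, which hydrolyzes cholesteryl esters of lipoproteins, at 4.03, 5.69 and 3.79 FPKM under NC and 51.6, 24.6 and 18.7 FPKM under HFCF. MCOLN1, the calcium channel of the lysosome, was the lower gene, at 6.37, 5.72 and 5.97 FPKM under NC and 3.14, 2.79 and 2.96 FPKM under HFCF (log2 fold change -0.999 ± 0.16 (SE), adjusted p = 0.00624).

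Lysosomal channels and carriers outside the pathway held 7 higher and no lower calls of 16 in the limma fit (10 and 0 at an unadjusted p under 0.05). The 7 were 43.75%, beside 22.8% of all genes called higher. The list median was 0.81, and 0.46 to 0.56 under the 3 scalings. OSTM1, the β subunit of the chloride-proton exchanger CLCN7, was at 3.48 ± 0.626 FPKM (SD, n = 3) under NC and 10.7 ± 2.2 FPKM under HFCF (log2 fold change 1.58 ± 0.22 (SE), adjusted p = 0.0036), and CLCN7 itself rose by less (log2 fold change 0.79 ± 0.24 (SE), adjusted p = 0.0439), kept in 4 of 15 alternatives. The Ragulator, Rag and BORC genes tie the lysosome to mTORC1 signaling and to kinesin transport. They held 7 higher (50%) and 1 lower calls of 14, with a median of 0.665, or 0.31 to 0.41 under the 3 scalings. Ragulator subunits LAMTOR1, LAMTOR2, LAMTOR4 and LAMTOR5 rose by 1.41, 1.39, 0.99 and 1.32 on the log2 scale, and the fifth, LAMTOR3, was not called (log2 fold change 0.44 ± 0.18 (SE), adjusted p = 0.111). The lower gene was the GTPase RRAGA (log2 fold change -0.67 ± 0.16 (SE), adjusted p = 0.023), kept in 11 of 15 alternatives. The HOPS and CORVET tethers, which hold membranes together before fusion with the lysosome, held no higher call and 1 lower of 7 in the limma fit (0 and 1 at an unadjusted p under 0.05), VPS41 at -0.47 (adjusted p = 0.0497), kept in 6 of 15 alternatives. Other lysosomal enzymes held 5 higher (31.25%) and 1 lower calls of 16, with a median of 0.63, or 0.29 to 0.43 under the 3 scalings. Among the higher was HPSE, the heparanase that cleaves heparan sulfate chains. HPSE was read at 0.0423, 0.103 and 0.387 FPKM under NC and 4.47, 2.15 and 2.04 FPKM under HFCF (log2 fold change 3.54 ± 0.54 (SE), adjusted p = 0.00498).

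Of the 4 rows set apart, a row described as macrosialin without a symbol was read at 0.133, 0.131 and 1.11 FPKM under NC and 97.9, 32.4 and 28.7 FPKM under HFCF (log2 fold change 6.81 ± 0.75 (SE), adjusted p = 0.00182). Macrosialin is the protein of CD68, a macrophage marker, and the gene listed as CD68 has a row of its own. A row described as cathepsin V was read at 47.2, 52.9 and 37.5 FPKM under NC and 32.2, 44.2 and 52.5 FPKM under HFCF, not called. A row described as cathepsin G was at 0 in all libraries but the first HFCF pig, with 0.288 FPKM. ATP6V1FNB, a neighbor of ATP6V1F that encodes no pump subunit, was read at 1.01, 1.74 and 5.31 FPKM under NC and 1.38, 1.79 and 1.54 FPKM under HFCF, not called. With these rows the counts were 36 higher and 2 lower of 100 tested.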

How the data were processed

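RNA from 6 abdominal aortas, 3 NC and 3 HFCF, was sequenced in 1 library per pig. The deposited gene table holds FPKM values, which the authors made with cutadapt 1.9, FastQC, HISAT2 and StringTie; the methods name an earlier pig assembly than the reference tables used here, so no coordinates or sequences are printed. No read counts are given, so no counting interval could be set; values of 0.0001 FPKM or less were read as 0. Of 10 members listed by identifier only, 6 had a symbol in a reference table of gene names. Their labels were checked against the deposited descriptions.

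Groups were compared with limma 3.58.1 in R 4.3.3 on log2(FPKM + 0.1), in genes with a mean of at least 0.1 FPKM, with eBayes trend; p-values of all these genes were adjusted together by Benjamini-Hochberg; a call is an adjusted p under 0.05. Fold changes on this scale understate those of low genes. The fit was tested on simulated data. Each alternative changed 1 choice: a pseudocount of 1 or 0.01, no filter or a mean of at least 1 FPKM, 3 scalings, no trend, a replicate block, and each pig left out, which leaves 15 alternative fits; the study's thresholds for differential genes (ratio of means above 2 or below 0.5, with an unadjusted p under 0.05) were a further choice, and the counts over all 104 rows were added after seeing the data.

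The members, classes and lists were chosen with earlier results of these data known, so lists are described by counts and medians without a test. Named genes are all pump genes and, in each other class, up to 4 largest rises and 3 largest falls among the called genes plus the 2 with the highest mean FPKM; a few genes that this rule names are not reported here. Other genes named, and the 3 partner ratios, were chosen after their values were seen.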

Additional observations from a re-analysis of the deposited data

How the results depend on the processing

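Of 55 named genes that were tested, none changed direction with a call in any of 15 alternative fits; of the 33 called, 15 stayed called in all of them. Under median-ratio scaling, quantile normalization and TPM, 19 members were higher in each, and 8, 5 and 4 were lower. Of all genes 13.2%, 11.4% and 14.5% were then higher, in place of 22.8%. The counts of higher soluble enzymes were 4, 6 and 4 in place of 12, of 30 tested. Those of sulfatases and modifiers were 1 in each in place of 3, and of trafficking genes 5 in each in place of 9. Quantile normalization left 5 V-ATPase genes and 3 membrane proteins higher. These scalings took the median log2 fold change of all members to 0.13, 0.20 and 0.23 and of trafficking genes to 0.096, 0.080 and 0.19, while median-ratio scaling and TPM gave 0.083 and 0.18 for V-ATPase genes and 0.16 and 0.25 for glycosidases. The median of all genes moves with them, since scaling removes the shift between the groups. Trafficking genes had a median of 0.25 with a pseudocount of 1, and V-ATPase genes one of 0.88 at a mean of at least 1 FPKM, where fewer genes are tested. With the study's thresholds 6 soluble enzymes, 1 sulfatase or modifier and 5 trafficking genes were higher and 1 trafficking gene lower; 1 trafficking gene was also lower without the filter, with median-ratio scaling, with quantile normalization and without the trend, which left 1 sulfatase or modifier higher. Leaving out 1 pig at a time gave 19 to 33 higher and 1 to 3 lower members. Of all genes 12.7% to 18.2% were then higher and 2.85% to 5.1% lower. The same fits gave 4 to 11 higher soluble enzymes and 1 to 3 higher sulfatases and modifiers. Of trafficking genes 5 to 8 were higher and 0 to 1 lower. The cause was not tested.

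Replicate numbers are not stated to pair the pigs. Deviations of same-numbered pigs from their group means correlated at 0.02, -0.08 and -0.07. These values showed no shared pattern but cannot settle whether the numbers pair pigs. With the numbers as a replicate block 22 members were higher and 1 lower (22.7% and 1.03%, beside 14.5% and 3.51% of all genes). In that fit 6 soluble enzymes, 1 sulfatase or modifier and 5 trafficking genes were higher. No read counts are given, so what depth limits could not be set.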
